A study of Mus musculus with 4 samples.

Results

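The transcriptional regulators of oxidative metabolism described here are 10 genes, namely the coactivators Ppargc1a and Ppargc1b, the lipid receptors Ppara and Ppard with their partner Rxrg, the estrogen-related receptors Esrra and Esrrg, and the mitochondrial gene regulators Nrf1, Gabpa and Tfam. They were named as known members of this network, with no measured value in the rule but with earlier results of these data known. Each library held 32868 gene names, of which 10690 were tested. Each of the 10 has 1 row in the deposited files, and all 10 lay above the 0.5 RPKM filter in every library (RPKM, reads divided by gene length and library depth). The tissue was tibialis anterior, a fast-twitch muscle at the front of the shin, of C57BL/6 mice at postnatal day 21. The 2 libraries labelled Het had the genotype Nf1flox/+/Myf5+ and the 2 labelled Nf1-KO had Nf1flox/flox/Myf5+, so both groups carried at least 1 floxed Nf1 allele and the Myf5+ element, and no group free of them was measured. Floxed alleles are removed by the recombinase Cre, and Myf5 is a gene of muscle precursors. The labels do not spell out the Myf5+ element or state which cells lost Nf1, and whole muscle also holds vessel, nerve, connective tissue and immune cells. The labels do not say whether the libraries of a group came from separate animals, so the p-values measure the spread between these libraries, which may be technical.

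PGC-1α and PGC-1β, the products of Ppargc1a and Ppargc1b, do not bind DNA themselves. They are recruited by transcription factors and raise the transcription of genes for mitochondria and fat oxidation. PPARα and PPARδ are receptors for fatty acids that bind DNA together with a retinoid X receptor such as RXRγ, the product of Rxrg. ERRα and ERRγ act on genes of the tricarboxylic acid cycle and the respiratory chain, while NRF-1 (gene Nrf1, nuclear respiratory factor 1) and GABPα switch on nuclear genes for respiratory chain subunits and for TFAM, which packages and transcribes mitochondrial DNA. In skeletal muscle this network is known for its part in the oxidative character of slow and fast oxidative fibres and in the response to endurance exercise.

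Nf1 itself, as a check of the labels, was 1.09 and 1.01 RPKM in Het and 0.89 and 0.85 RPKM in Nf1-KO (log2 fold change -0.18, limma adjusted p 0.041), a small difference that did not pass without scaling between libraries (-0.13, limma adjusted p 0.094) or with any 1 of the 4 libraries left out (limma adjusted p 0.057 to 0.18). It measured -0.33 when 0.1 rather than 1 was added before taking logs (limma adjusted p 0.045), and the authors' deposited table listed -0.38 with 0.0026 as its adjusted p. The deposited values summed to between 532315 and 547144 RPKM per library. Depth is not given, but the mean normalized counts in the authors' deposited table summed to 49581081 reads, and for the 10 regulators that table listed between 523 (Nrf1) and 5896 (Esrra) reads per library on average. Skeletal muscle was abundant in every library, with the skeletal actin gene Acta1 at no less than 12305 RPKM and the fast myosin gene Myh4 at no less than 3428 RPKM. In whole muscle, fewer cells of a type and less RNA per cell cannot be told apart.

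Of the 10 regulators, 6 passed the test between Nf1-KO and Het, 4 of them higher (Ppara, Ppargc1a, Esrra and Nrf1) and 2 lower (Rxrg and, narrowly, Ppargc1b). Ppard, Esrrg, Gabpa and Tfam did not pass. The share called, 6 of 10, has to be read against a background of 50.3% of all 10690 tested genes, with 24.9% called higher and 25.4% called lower, so the number of calls is not a result about these genes. The sizes differed more: the log2 fold change of Ppara exceeded in size that of 97.6% of tested genes and that of Rxrg 91.5%, against 12.8% for Esrrg. The median log2 fold change over the 10 genes was 0.10, beside 0.00 over all tested genes. In the deposited values both Nf1-KO libraries lay above both Het libraries for 8 genes and below them for 2 (77.3% of all tested genes did not overlap, 49.8% above and 27.4% below). With the values left unscaled, 8 regulators were called higher and 1 lower, in place of 4 and 2, since all 4 uncalled genes then passed as higher and Ppargc1b was lost. Leaving out the scaling also moved the calls over all tested genes from 2660 higher and 2712 lower to 3760 and 1883, and the median log2 fold change of all tested genes to 0.07.

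**Figure D1:**
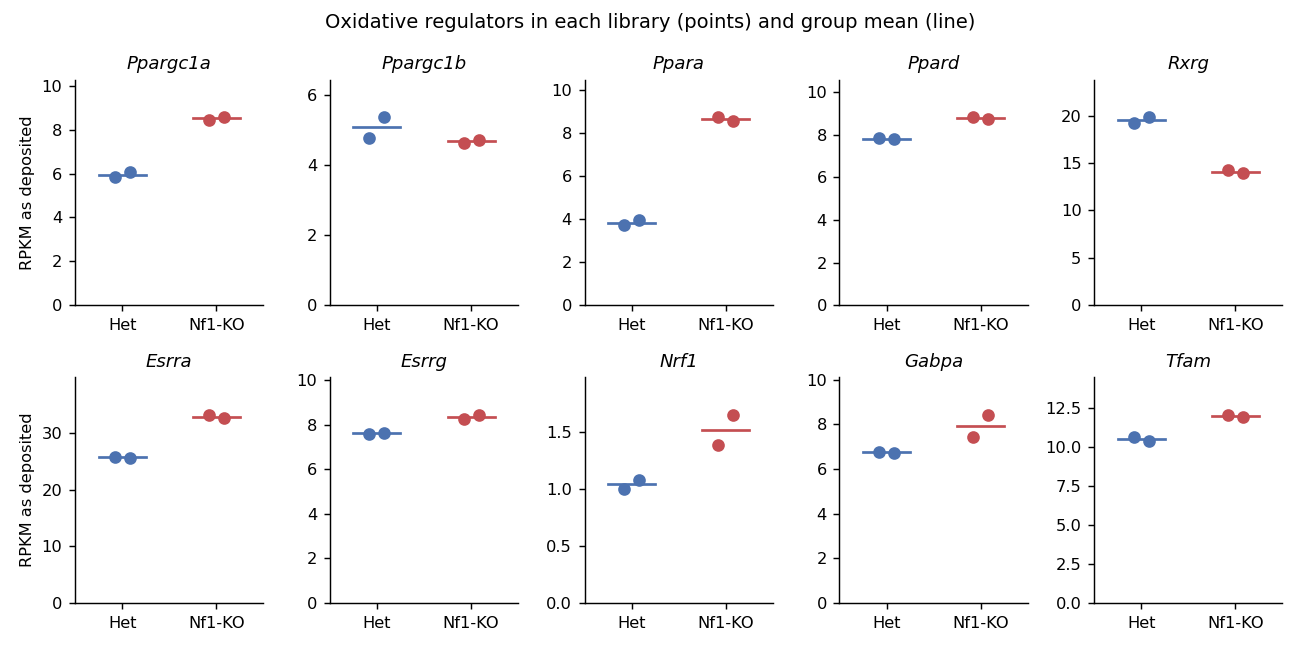
RPKM as deposited (y axis, from 0) of each regulator in the 2 Het and 2 Nf1-KO libraries; points are libraries and lines are group means. Ppara shows the widest gap relative to its level, 3.71 and 3.97 against 8.73 and 8.57, and Rxrg and Ppargc1b lie lower in Nf1-KO.

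**Figure D2:**
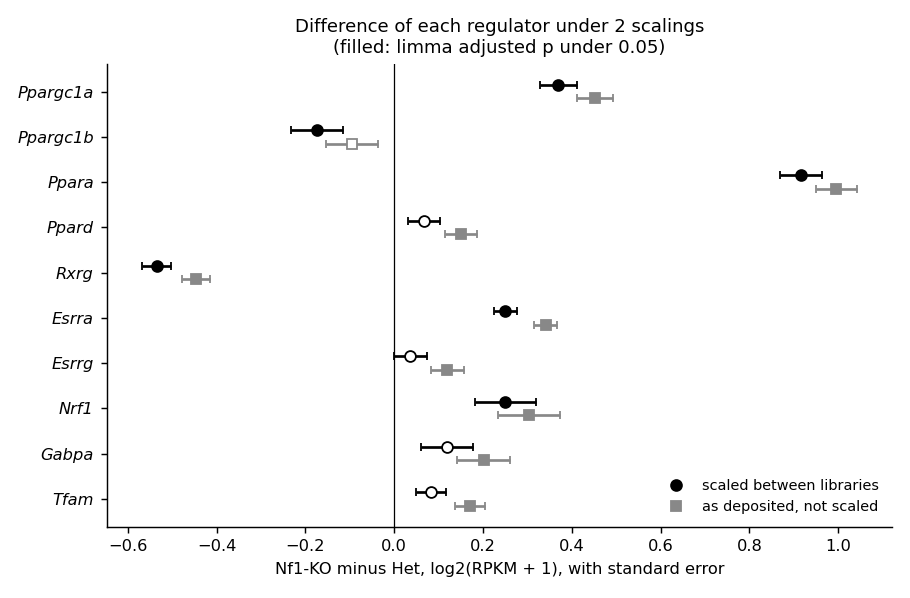
Difference of each regulator between Nf1-KO and Het on the log2(RPKM + 1) scale, with its standard error, for values scaled between libraries (circles) and as deposited (squares); filled symbols have a limma adjusted p under 0.05. Without scaling every difference shifts upwards, and Ppard, Esrrg, Gabpa and Tfam become filled while Ppargc1b becomes open.

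Among the coactivators, Ppargc1a, the PGC-1 gene that exercise and cold induce, was 5.82 and 6.08 RPKM in Het and 8.46 and 8.56 RPKM in Nf1-KO. Both Nf1-KO libraries lay well above both Het libraries. The ratio of the means was 1.43 in deposited values and 1.34 after scaling, and the log2 fold change was 0.37 (SE 0.041, limma adjusted p 6.1e-04). Ppargc1b, whose product shares most partners with PGC-1α, was 4.78 and 5.36 RPKM in Het and 4.64 and 4.71 RPKM in Nf1-KO. Its highest Het library stood apart from the other 3, and the gap between the groups was small beside the spread in Het (SD 0.41, n = 2). Its log2 fold change was -0.17 (SE 0.058, limma adjusted p 0.048). The call was lost without Het replicate 2 (-0.11, limma adjusted p 0.18), without Nf1-KO replicate 1 (-0.16, 0.13) and without Nf1-KO replicate 2 (-0.17, 0.10), and the authors' deposited table gave an adjusted p of 0.071. Pprc1, the third gene of the family, was at 1.11 ± 0.12 RPKM in Het and 1.10 ± 0.13 RPKM in Nf1-KO (SD, n = 2), and its groups overlapped (exons of Pprc1 and Ldb1 also do).

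The balance within the PGC-1 family was also compared. The ratio of Ppargc1a to Ppargc1b was 1.22 and 1.13 in the Het libraries and 1.82 in both Nf1-KO libraries. On the log2 scale the difference in this ratio was 0.63, beside a pooled SD between replicates of 0.051. The smallest p that an exact permutation test can reach in this design, for a single value, is 0.333, so this and the other ratios are given without a test. Ppargc1a held 49.1% of the summed RPKM of the 3 genes in Het and 59.6% in Nf1-KO.

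Ppara, the receptor that drives fatty acid oxidation genes, differed most among the 10 genes. It was 3.71 and 3.97 RPKM in Het and 8.73 and 8.57 RPKM in Nf1-KO, and the Nf1-KO libraries lay far above the Het libraries. The ratio of the means was 2.25 in deposited values and 2.11 after scaling. On the log2 scale this was 0.92 (SE 0.047, limma adjusted p 2.3e-05), and it ran from 0.87 to 1.06 over the alternative settings. The authors' deposited table listed 1.06 on the log2 scale, with 6.2e-58 as its adjusted p.

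Ppard, the PPAR that prevails in skeletal muscle, was 7.83 and 7.79 RPKM in Het and 8.82 and 8.74 RPKM in Nf1-KO. These groups did not overlap, but after scaling the log2 fold change was 0.07 at limma adjusted p 0.176. Pparg, the adipocyte member of the family, was at 1.15 ± 0.035 and 1.24 ± 0.021 RPKM (SD, n = 2), with a log2 fold change of 0.01. The ratio of Ppara to Ppard was 0.474 and 0.51 in the Het libraries and 0.99 and 0.981 in the Nf1-KO libraries. Of the summed RPKM of the 3 PPAR genes, Ppara made up 29.3% and 30.7% in the Het libraries and 46.4% and 46.2% in the Nf1-KO libraries, and the sum itself was 12.8 ± 0.19 and 18.7 ± 0.19 RPKM (SD, n = 2).

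Rxrg encodes RXRγ, a DNA-binding partner of the PPARs with its highest expression in skeletal muscle and heart. It was 19.28 and 19.83 RPKM in Het and 14.22 and 13.96 RPKM in Nf1-KO, with both Nf1-KO libraries well below both Het libraries. The ratio of the means was 0.721 in deposited values and 0.675 after scaling. The log2 fold change was -0.53 (SE 0.033, limma adjusted p 4.9e-05), and the authors' deposited table listed -0.58. The more abundant Rxra also fell, from 35.8 ± 0.61 to 30.4 ± 0.71 RPKM (SD, n = 2; log2 fold change -0.32, limma adjusted p 2.8e-04), whereas Rxrb was at 12.8 ± 0.91 and 14.5 ± 0.21 RPKM and did not pass (log2 fold change 0.08). Summed over the 3 RXR genes, the level was 68.2 ± 1.13 RPKM in Het and 59.0 ± 0.69 RPKM in Nf1-KO, while the PPAR sum was the higher one in Nf1-KO. The ratio of Rxrg to Rxra was 0.532 and 0.56 in Het and 0.46 and 0.467 in Nf1-KO.

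**Figure D3:**
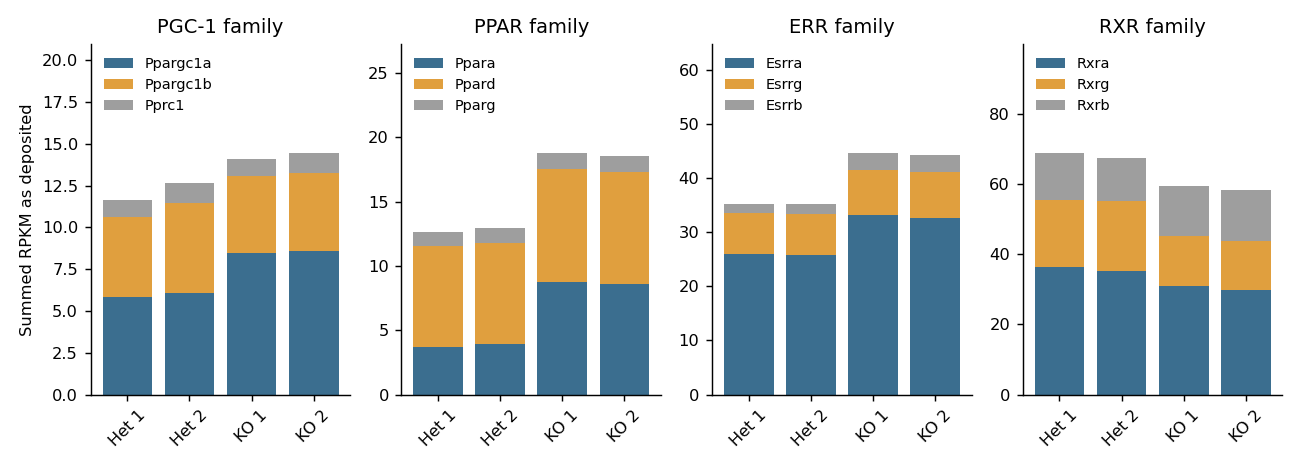
Summed RPKM as deposited (y axes, from 0) of the PGC-1, PPAR, ERR and RXR families in each of the 4 libraries, split by gene; KO stands for Nf1-KO. The PPAR sum is higher in Nf1-KO, mainly through Ppara, and the RXR sum is lower.

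The promoter windows of Ppara and Rxrg, the members with the largest rise and the largest fall, are printed as RefSeq gives them for GRCm38.p6 (250 bases before to 50 after the annotated start, 5′ to 3′ on the gene's strand). The deposited values rest on another build, mm9, and the files do not show which start site was used. Ppara has 1 window, at chr15:85735526-85735825 on the plus strand, and the window of Rxrg shown is the second of its 2, at chr1:167618015-167618314 on the plus strand. The first window of Rxrg, at chr1:167598112-167598411, held no match to a searched motif and is not shown. Capitals mark matches to a searched motif: in Ppara the NRF-1 motif GCGCANGCG, which matches on both strands at bases -31 to -22 from the start, and in Rxrg the ERR half-site AAGGTCA, at bases -89 to -83.
Ppara: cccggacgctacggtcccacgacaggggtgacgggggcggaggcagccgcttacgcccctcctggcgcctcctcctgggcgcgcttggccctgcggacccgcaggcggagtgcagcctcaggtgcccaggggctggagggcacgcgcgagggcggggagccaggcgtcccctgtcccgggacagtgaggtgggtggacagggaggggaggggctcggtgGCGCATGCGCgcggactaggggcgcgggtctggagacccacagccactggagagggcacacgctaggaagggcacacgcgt
Rxrg: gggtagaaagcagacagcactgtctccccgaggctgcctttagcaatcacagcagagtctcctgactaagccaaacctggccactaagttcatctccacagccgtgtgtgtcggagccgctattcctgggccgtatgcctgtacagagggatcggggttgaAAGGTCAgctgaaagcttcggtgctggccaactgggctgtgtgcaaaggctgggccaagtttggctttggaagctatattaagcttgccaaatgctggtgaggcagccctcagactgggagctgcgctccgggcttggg

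Motifs were searched on both strands in 14 windows of 9 of the 10 genes, and Ppargc1b has no entry in the table. The NRF-1 motif occurred in 2 of the 14 windows (Ppara and Esrra), against 6.25% of all 32851 windows. The ETS motif CCGGAAG, the kind of site that GABPα binds, occurred in 2 (Tfam and Gabpa), against 8.86% of all windows. The ERR half-site occurred in 1 (Rxrg), against 4.72%, and its extended form TCAAGGTCA in 0, against 0.423%; the half-site lies within the extended form. The MEF2 motif CTATTTATA occurred in 1 (Esrrg), against 0.429%, and the CRE motif TGACGTCA in 0, against 1.79%. Of the 4 genes called higher, Ppara and Esrra held an NRF-1 match and Ppargc1a and Nrf1 held a match to none of the motifs. These matches describe letters in a window and do not show binding.

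Esrra, the most abundant of the 10 genes and a main partner of PGC-1α, was 25.88 and 25.71 RPKM in Het and 33.23 and 32.68 RPKM in Nf1-KO. The libraries of a group differed by little, and the groups were clearly apart. The ratio of the means was 1.28 in deposited values and 1.2 after scaling, and the log2 fold change was 0.25 (SE 0.027, limma adjusted p 5.0e-04). Exons of Esrra overlap those of Trmt112 on the opposite strand, and the sources used here do not say if reads were counted by strand, so its value may hold reads of both. Its promoter window lies on the minus strand at chr19:6921759-6922058. The stretch around its NRF-1 match, 30 bases on either side at chr19:6921911-6921979, is shown to set it beside that of Ppara, with the match in capitals at bases -141 to -133.
Esrra: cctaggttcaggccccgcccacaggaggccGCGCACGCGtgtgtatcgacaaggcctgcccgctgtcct

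Esrrg, the ERR of highly oxidative tissues, was 7.58 and 7.64 RPKM in Het and 8.27 and 8.44 RPKM in Nf1-KO. As for Ppard, these values did not overlap but the difference after scaling did not pass (log2 fold change 0.04, limma adjusted p 0.46). Esrrb, the family member best known from stem cells, was low and rose from 1.76 ± 0.0071 to 3.09 ± 0.071 RPKM (SD, n = 2), or by 0.50 on the log2 scale at limma adjusted p 4.0e-04. The ratio of Esrra to Esrrg was 3.41 and 3.37 in Het and 4.02 and 3.87 in Nf1-KO, a difference of 0.22 on the log2 scale. The ERR sum was 35.2 ± 0.085 RPKM in Het and 44.4 ± 0.34 RPKM in Nf1-KO, and Esrra made up 73.4% and 74.2% of it.

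Nrf1 was the lowest of the 10 genes. It was 1.00 and 1.08 RPKM in Het and 1.39 and 1.65 RPKM in Nf1-KO, and the Nf1-KO libraries lay above the Het libraries but also apart from each other (SD 0.18 in Nf1-KO, n = 2). The ratio of the means was 1.46 in deposited values and 1.37 after scaling. The log2 fold change was 0.25 (SE 0.069, limma adjusted p 0.025), on a scale that understates the change of a gene this low. The call was lost without Het replicate 1 (0.22, limma adjusted p 0.107) and without Nf1-KO replicate 2 (0.18, limma adjusted p 0.122). The authors' deposited table listed 0.44 on the log2 scale, with 0.0044 as its adjusted p.

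Gabpa encodes the DNA-binding subunit of GABP, also called NRF-2. It was 6.78 and 6.73 RPKM in Het and 7.44 and 8.42 RPKM in Nf1-KO, so 1 Nf1-KO library lay much closer to Het than the other. The log2 fold change was 0.12 (SE 0.058, limma adjusted p 0.139). Without Nf1-KO replicate 1 it passed (0.20, limma adjusted p 0.020), so the outcome rested on that library. Exons of Gabpa overlap those of Atp5j, a subunit gene of ATP synthase, on the opposite strand, and its value may hold reads of both. Tfam was 10.64 and 10.39 RPKM in Het and 12.03 and 11.88 RPKM in Nf1-KO, with a log2 fold change of 0.08 and a limma adjusted p of 0.089 after scaling. The ETS matches of these genes are shown because they are the 2 members with the same motif and neither passed the test. The stretch of Tfam is at chr10:71238055-71238121 on the minus strand, with the match at bases -47 to -41, and that of Gabpa at chr16:84835001-84835067 on the plus strand, with the match on the other strand at bases -93 to -87.
Tfam: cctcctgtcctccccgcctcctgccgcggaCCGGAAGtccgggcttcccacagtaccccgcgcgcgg
Gabpa: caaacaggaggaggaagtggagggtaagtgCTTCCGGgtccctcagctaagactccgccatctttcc

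In Het the order of levels from high to low was Esrra, Rxrg, Tfam, Ppard, Esrrg, Gabpa, Ppargc1a, Ppargc1b, Ppara and Nrf1, and no 2 neighbours overlapped, with the smallest gap 0.15 RPKM between Ppard and Esrrg. In Nf1-KO the first 4 places and the last were the same, and Ppara moved from the ninth to the fifth place. There the means of Ppard, Ppara, Ppargc1a and Esrrg were 8.78, 8.65, 8.51 and 8.355 RPKM. By the same measure between libraries, the gaps between neighbours were only 0.01 to 0.02 RPKM, and Esrrg and Gabpa overlapped. The order of these 5 genes therefore does not hold beyond their spread. Replicates of a group differed by a coefficient of variation under 5% except for Ppargc1b in Het (8.09%), Nrf1 in both groups (5.44% and 12.1%) and Gabpa in Nf1-KO (8.74%). The authors' deposited table, in which 31.6% of 13985 genes had an adjusted p under 0.05, called 5 of the 10, the same as here without Ppargc1b, and all 10 had the same sign in both.

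**Figure D4:**
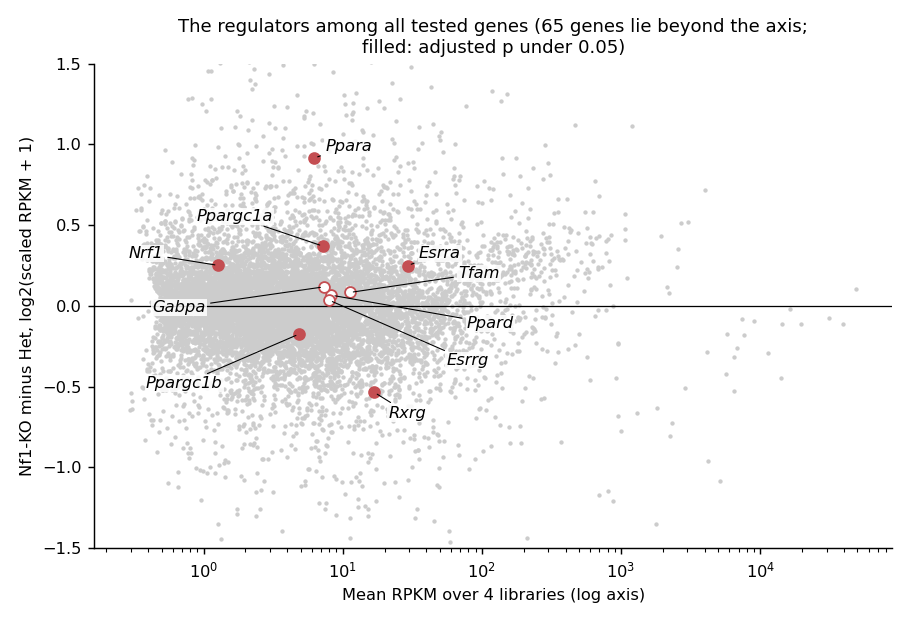
Mean RPKM over the 4 libraries (x axis, log scale) and difference between Nf1-KO and Het on the log2(scaled RPKM + 1) scale (y axis) for all tested genes (grey) and the 10 regulators (red; filled where called). Ppara lies at 0.92 and Rxrg at -0.53, while Ppard, Esrrg, Gabpa and Tfam lie within the dense band near 0.

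The genes whose values over the 4 libraries were closest to those of Ppara, among 4826 tested genes of at least 5 RPKM, were Hadha, an enzyme of mitochondrial fatty acid oxidation, Lipe, the hormone-sensitive lipase, and Cdkn1a, a cell cycle inhibitor. Their root mean square differences from Ppara in centred log2 values were 0.021, 0.025 and 0.028. The closest to Rxrg were Laptm4b, 1110008P14Rik and Ago2, with root mean square differences of 0.0068, 0.0091 and 0.0099. Over 4 libraries in 2 groups, such likeness reflects little more than a similar difference between the groups.

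Genes that act with or on these regulators were taken as lists, drawn up with earlier results of these data known. Of 20 coactivators and corepressors, 2 were called higher (1 without Het replicate 2 or Nf1-KO replicate 2) and 9 lower, and the median on the log2 scale was -0.13. The share called, 55%, is near the 50.3% of all tested genes. That background divides into 24.9% higher and 25.4% lower, so the calls in this list leaned to lower. Carm1, a methyltransferase that serves as coactivator, fell from 19.99 and 20.02 RPKM in Het to 13.62 and 12.88 RPKM in Nf1-KO (log2 fold change -0.65, limma adjusted p 3.7e-05), and its exons overlap those of Yipf2. Nrip1, a corepressor of oxidative genes in muscle, fell from 4.88 ± 0.099 to 3.67 ± 0.14 RPKM (log2 fold change -0.41), and the acetyltransferase gene Ep300 and its partner Cited2 had log2 fold changes of -0.32 and -0.30, both called. The higher ones were Sirt1, a deacetylase that acts on PGC-1α (log2 fold change 0.28), and Perm1, a muscle target and partner of PGC-1 and ERR, at 104 ± 0.0071 and 122 ± 0.93 RPKM (log2 fold change 0.14).

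Of 20 genes known to act upstream of Ppargc1a, 19 were tested, 1 was called higher and 10 lower (6 lower without Het replicate 2), with a median of -0.12 and 57.9% called, again near the 50.3% of all tested genes. Here too the calls leaned to lower, beside 24.9% higher and 25.4% lower over all tested genes. Camk2a, a calcium-dependent kinase, fell from 66.9 ± 0.071 to 32.2 ± 0.27 RPKM (SD, n = 2; log2 fold change -1.12, limma adjusted p 8.5e-07). The calcineurin catalytic subunit genes Ppp3ca and Ppp3cb also fell (log2 fold changes -0.55 and -0.51). The single higher gene was Hdac5, a deacetylase that represses MEF2 at the Ppargc1a promoter, from 14.6 ± 0.13 to 21.6 ± 0.028 RPKM (log2 fold change 0.44). 

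Of 22 other nuclear receptors, 18 were tested, 4 were called higher and 7 lower, with a median of 0.01. These are 61.1% called beside the 50.3% of all tested genes, so the counts say little about this list. Nr1d1, a repressor of the circadian clock, fell from 40.7 ± 1.05 to 24.1 ± 0.74 RPKM (SD, n = 2; log2 fold change -0.82, limma adjusted p 1.0e-05), and its exons overlap those of Thra. Rora, which competes with it for the same sites, fell by 0.34 on the log2 scale. Nr1h3, the oxysterol receptor LXRα, rose from 4.93 ± 0.39 to 8.41 ± 0.30 RPKM (log2 fold change 0.59). The lower count was 4 without Het replicate 1.

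The list headed partners of NRF-1 and GABP and genes of mitochondrial DNA expression held 20 genes, of which 17 were tested. In it 8 were called higher and 2 lower, with a median of 0.10 and 58.8% called, beside the same 50.3%. The remaining 3 (Polg2, Mterf3 and Tefm) were listed at 0 in all 4 libraries, which is no measure of absence, since 44.7% of rows are. Nfe2l2, the oxidative stress factor also called NRF2, rose from 7.67 ± 0.19 to 10.9 ± 0.52 RPKM (SD, n = 2; log2 fold change 0.37), and Polg, the mitochondrial DNA polymerase, and Mterf4, a mitochondrial ribosome factor, rose by 0.32 each, with exons that overlap those of Fanci and Sned1. The lower count was 1 without Het replicate 1, Het replicate 2 or Nf1-KO replicate 2. Top1mt, the mitochondrial topoisomerase, was lower by a narrow call (log2 fold change -0.28, limma adjusted p 0.048), with groups that overlapped: 7.22 and 6.22 RPKM in Het and 6.28 and 5.17 RPKM in Nf1-KO.

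**Figure D5:**
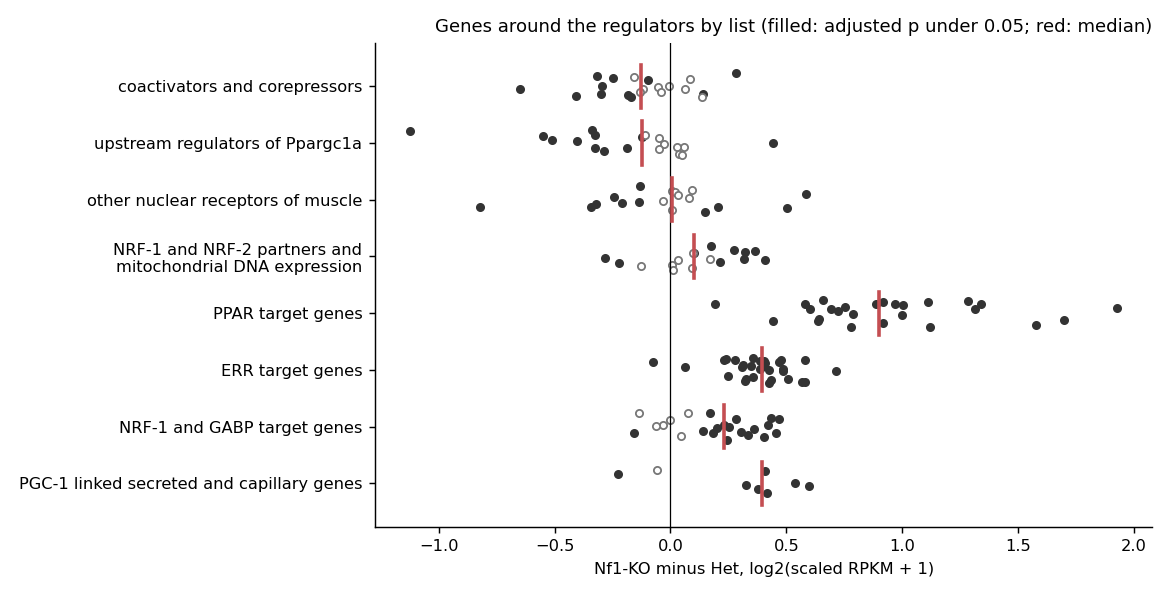
Difference between Nf1-KO and Het on the log2(scaled RPKM + 1) scale (x axis) for the tested genes of 8 lists (rows); points are genes, filled where called, and red lines are list medians. PPAR target genes lie furthest to the right (median 0.90), and coactivators and upstream genes lie mostly left of 0.

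Known target genes of the receptors, in lists drawn up with earlier results of these data known, were higher as a group. Their counts are therefore no independent test. Of 30 PPAR target genes, 26 were tested and all 26 were called higher, with a median log2 fold change of 0.90 and a range of 0.19 to 1.93, beside 24.9% of all tested genes called higher and a median of 0.00. Acot1, a thioesterase of acyl-CoA, rose from 1.29 ± 0.021 to 8.12 ± 0.28 RPKM (SD, n = 2; log2 fold change 1.93, limma adjusted p 1.6e-06), a value that is uncertain as far as it shares reads with its close copy Acot2. Lpl, which frees fatty acids from blood lipoproteins, rose from 93.5 ± 0.30 to 326 ± 4.09 RPKM, Plin5, a lipid droplet protein at mitochondria, from 16.1 ± 0.23 to 53.5 ± 0.13 RPKM, and Angptl4, an inhibitor of Lpl, from 0.78 ± 0.042 to 3.70 ± 0.13 RPKM. The other 4 lay below the filter. Among them was Cpt1b, the muscle form of the enzyme that admits fatty acids to mitochondria. It was listed at 0.22 and 0.15 RPKM in Het and 0.32 and 0.35 RPKM in Nf1-KO. The rows of its neighbour Chkb and of their joint transcript were at no more than 0.04 RPKM. Exons of Cpt1b overlap those of Gm44502 on the same strand, and how shared reads were counted is not given. The low value of Cpt1b is therefore no measure of absence.

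All 30 ERR target genes were tested, and 29 were called higher and 1 lower, with a median of 0.40. Of all tested genes, 24.9% were called higher and 25.4% lower. Mb, the oxygen store myoglobin, rose from 2919 ± 18.9 to 5117 ± 25.5 RPKM (SD, n = 2; log2 fold change 0.72, limma adjusted p 6.0e-07), and its exons overlap those of Apol6. The respiratory chain genes Cox8b, Sdhb and Cox6a2 rose by 0.58, 0.58 and 0.57 on the log2 scale, and exons of Cox6a2 overlap those of Itgad. Idh3a, a subunit of isocitrate dehydrogenase, was the lower one at -0.07, a call that was also lost without Nf1-KO replicate 1 and whose direction held only after scaling: in deposited values it was 282 ± 0.11 RPKM in Het and 286 ± 3.06 RPKM in Nf1-KO. Of 24 NRF-1 and GABP target genes, 23 were tested, with 16 higher, 1 lower and a median of 0.23. These are 73.9% called, beside 50.3% of all tested genes. The cytochrome oxidase genes Cox6a1, Cox7c and Cox6c and the complex III gene Uqcrh rose by 0.47, 0.43, 0.42 and 0.46 on the log2 scale, and Timm17a, a mitochondrial import gene, fell by 0.16.

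Of 8 secreted and capillary genes linked to PGC-1, 6 were called higher and 1 lower, with a median of 0.39. These are 87.5% called, beside 50.3% of all tested genes (24.9% higher and 25.4% lower). Fndc5, the precursor of irisin, rose from 47.1 ± 0.95 to 73.5 ± 1.56 RPKM (SD, n = 2; log2 fold change 0.54), and the growth factor genes Fgf1 and Vegfb rose by 0.60 and 0.42 on the log2 scale. Metrnl, low but also called higher, was at 0.725 ± 0.13 RPKM in Het and 1.36 ± 0.13 RPKM in Nf1-KO (log2 fold change 0.41, limma adjusted p 0.0060). Vegfa, the angiogenic factor that PGC-1α is known to induce, was 30.56 and 31.28 RPKM in Het and 30.91 and 32.35 RPKM in Nf1-KO, and its groups overlapped. Angpt2 was the lower gene, at under 1 RPKM in every library, and the list held 0 lower calls without Het replicate 1, Nf1-KO replicate 1 or Nf1-KO replicate 2.

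Markers of several other cell types also differed between the groups, and their part in these results was not tested. The summed level of 8 adipocyte markers was 179 and 186 RPKM in Het and 269 and 267 RPKM in Nf1-KO, mostly from Fabp4. Of the 4 tested, 3 were called higher: Fabp4, which PPARs are also known to act on (log2 fold change 0.42), the adipokine gene Cfd (6.34 ± 0.66 to 17.5 ± 0.26 RPKM, SD, n = 2; 1.25) and the lipid droplet gene Cidec (0.35). Adipoq, the fourth, went the other way and did not pass (log2 fold change -0.19, 0.95 to 1.31 RPKM over the libraries). Ucp1 was listed at 0. The share called, 75% of 4 genes, stands beside 50.3% of all tested genes. Several listed PPAR targets, Lpl and Angptl4 among them, are also expressed in adipocytes. The 10 immune cell markers summed to 14.98 and 14.80 RPKM in Het and 40.5 and 39.8 RPKM in Nf1-KO, with Adgre1 listed at 0, and the 8 Schwann cell markers to 16.5 and 17.2 RPKM against 37.1 and 35.6 RPKM. The 8 fibroblast markers summed to 102 and 99.4 RPKM against 153 and 154 RPKM, and the 8 endothelial markers to 99.4 and 99.7 RPKM against 107 and 106 RPKM. All these sums are of deposited values. After scaling, the endothelial markers had a median log2 fold change of -0.01, with 3 called higher and 2 lower. These are 62.5% called, beside 50.3% of all tested genes. The 11 muscle fibre markers, most of them of fast fibres, summed to 56206 and 56296 RPKM in Het and 42342 and 41885 RPKM in Nf1-KO. Of these markers 3 were called higher and 7 lower, or 90.9% called beside 50.3% of all tested genes. The higher ones were the myosin genes Myh2 and Myh1 of fast oxidative and intermediate fibres (log2 fold changes 0.77 and 0.52) and the slow troponin gene Tnnt1 (0.78), and Myh4, the myosin of the most glycolytic fibres, fell (-1.08). Myh7, the slow myosin, was at 1.36 to 1.66 RPKM and did not pass.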

How the data were processed

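RNA-seq of 2 Het and 2 Nf1-KO muscle libraries was used, grouped by the sample titles. Per the submitters' processing notes, STAR 2.4.2a, DESeq2 and the mouse build mm9 were used; the counting program, annotation and strand setting are not given in the sources used here. The authors deposited 1 value per gene and library, which reads as RPKM (reads divided by gene length and library depth); no source names the unit. A table of the comparison, deposited by the authors and laid out like DESeq2 output, holds a signal (mean count divided by size factors), log2 fold change, standard error, score (the test statistic), p-value and adjusted p.

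Of 34682 rows, 33 with a number for a name were left out, and of rows marked as copies (1781) only the highest by mean was used. Genes of at least 0.5 RPKM in 2 libraries were scaled by the trimmed mean of their log ratios, unweighted (trims of 30% on ratios, 5% on abundance; factors 0.969, 0.967, 1.03 and 1.03) and tested on log2(RPKM + 1) with limma 3.58.1 (R 4.3.3, variance trend, no covariate), adjusted by Benjamini-Hochberg over 10690 genes, threshold 0.05. Fold changes are on that scale, which understates low genes. Means and SD are of deposited values. The procedure was tested on simulated data in which few genes changed, as many up as down. That test therefore does not bear on the choice of scaling. The design had also foreseen a count test, which RPKM does not allow. Libraries were not paired by replicate number in the main model. The deviations of replicate 1 from its group mean had a correlation of -0.018 between the groups over genes. This value cannot show whether the libraries were paired.

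The members and gene lists were chosen with earlier results of these data known. All 10 members are named, as are, per list, up to 4 called genes of at least 1 RPKM with the largest change, the furthest called gene in the other direction, and the other family members; Acot2, Adipoq and other genes beyond that rule were named after their values were seen. List genes were matched by symbol or RefSeq synonym, and overlapping exons come from GENCODE M21 (GRCm38). Promoters are RefSeq's, of GRCm38.p6. Alternatives covered pseudocount, filter, scaling, limma settings, the replicate block, copies and each library left out.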

Additional observations from a re-analysis of the deposited data

How the results depend on the processing

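The 17 alternatives gave 519 values. Of these 445 kept direction and side of the threshold, or stayed within 1.5 times for counts or within the pooled SD for paralogue ratios. A change of direction was scored only for the fold changes of the members and Nf1, and 0 of those changed direction. Ppara, Ppargc1a, Esrra and Rxrg passed in each of their 16 alternatives. With values as deposited, Esrrg (0.12), Gabpa (0.20), Ppard (0.15) and Tfam (0.17) passed as higher and Ppargc1b (-0.10) did not pass. This gave 8 members called higher and 1 lower. Only the scaling differs between this setting and the main one. The median log2 fold change of all tested genes was 0.07 without scaling and 0.00 with it. Ppargc1b also lost its call with no filter (-0.18), with 1 RPKM in every library (-0.17), with the 20 most abundant genes left out (-0.20), with limma without a variance trend (-0.17) and at an adjusted p under 0.01 (-0.17), each leaving 1 member called lower; its adjusted p ran from 0.023 to 0.213. Nrf1 lost its call with no filter (0.24) and at 0.01 (0.25), with an adjusted p of 0.012 to 0.122 over its alternatives. The causes were not tested.

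With each library left out in turn, log2 fold changes ran from -0.25 to -0.11 for Ppargc1b, 0.18 to 0.33 for Nrf1 and 0.049 to 0.20 for Gabpa, and 1 to 2 members were called lower and 3 to 5 higher. The remaining library of that group is then assumed to vary like the other group. A replicate block in the model called 2590 genes higher and 2636 lower, with 4 members higher and 2 lower. It changed no call of a member, and Nf1 lost its call (-0.18, adjusted p 0.056).

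Among the lists, values as deposited gave 4 coactivators higher in place of 2, 3 upstream genes higher in place of 1 and 4 nuclear receptors lower in place of 7, and left 0 lower calls among mitochondrial partners, ERR targets and NRF-1 targets. At an adjusted p under 0.01, 3 nuclear receptors were lower. Upstream genes called lower were 6 in place of 10 without Het replicate 2, and nuclear receptors called lower 4 in place of 7 without Het replicate 1. The other list counts that moved by over 1.5 times were 1 or 2 to begin with. Nrf1 had the lowest mean normalized count of the members in the authors' deposited table, at 523. Whether depth limits its result was not tested.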
